A study of Mus musculus with 9 samples.

Results

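The Fat and Dachsous cadherins are very large cell-surface adhesion proteins, and their RNA was followed here in mouse squamous cell carcinoma (SCC) cells with and without focal adhesion kinase (FAK). The family was taken by gene name as Fat1, Fat2, Fat3, Fat4, Dchs1, Dchs2 and Fjx1. The counts covered 4 of these 7 genes (Fat1, Fat2, Fat4 and Dchs1), among 19044 gene identifiers in all. Fat3, Dchs2 and Fjx1 were not analysed here. The family was selected on the measured near absence of Fat4 counts from FAK-WT-expressing cells, so that contrast is described and not tested.

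Fat4 and Dchs1 bind each other across the gap between neighbouring cells, as receptor and ligand, and Fjx1 encodes the mouse relative of Four-jointed, a kinase that tunes this binding in flies. In flies the same pathway sets planar cell polarity and growth, the latter through the Hippo kinases, which restrain the coactivators YAP and TAZ. Fat1 is the broadly expressed family member of epithelial and mesenchymal cells, known for its links to the actin cytoskeleton and as a tumour suppressor that is often mutated in squamous carcinomas, and Fat2 is known for its role in the collective movement of epithelial cells.

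RNA sequencing was done on 3 cell lines with 3 biological replicates each, 9 libraries in all. The lines descend from skin tumours of FVB mice that carried floxed alleles of the FAK gene, Ptk2, and a tamoxifen-inducible Cre under the keratin 14 promoter. FAK-/- cells are a clone in which FAK was deleted in culture with 4-hydroxytamoxifen. The lines named FAK-WT-expressing and FAK-kd-expressing are that clone after stable retroviral expression of wild-type or kinase-dead FAK, under hygromycin selection. All 3 lines therefore share the deletion and rest on 1 clone, so that the spread between replicates does not include the spread between clones.

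Levels are given as counts and as CPM (counts divided by library size with the TMM factors of edgeR and put on a common scale). Library totals ran from 25304994 to 37264636 counts except for FAK-WT replicate 1, which held 779755, or 2.31% of the median of the other 8. In that library 3 counts amount to 3.78 CPM, against 0.0798 to 0.118 CPM in the others, so it cannot show the level of Fat2, Fat4 or Dchs1. Ptk2 was at 215 ± 1.92 CPM (SD, n = 3) in FAK-WT-expressing, 21.6 ± 1.93 CPM in FAK-/- and 163 ± 11.5 CPM in FAK-kd-expressing cells, in the order of the labels.

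Most keratin and epithelial junction markers of keratinocytes were at low levels in these SCC cells. Of the 10 keratinocyte and SCC markers measured among 12 named, Krt5, Krt14, Krt6a, Krt18, Cdh1 and Sfn stayed under 1 CPM in every library, with highest values of 0.115, 0.24, 0.213, 0.12, 0.128 and 0.608 CPM. Krt8 reached 1.38 CPM, and Krt15 was at 0.175 ± 0.152 CPM (SD, n = 3) in FAK-WT-expressing, 1.67 ± 0.18 in FAK-/- and 1.93 ± 0.305 in FAK-kd-expressing cells. The basal integrins Itga6 and Itgb4 reached 297 and 102 CPM and made up nearly all of the list's sum. That sum was 229 to 244 CPM in FAK-WT-expressing, 366 to 387 CPM in FAK-/- and 350 to 357 CPM in FAK-kd-expressing cells. Of the fibroblast markers, 6 of 7 were measured, and Col3a1 reached 1910 CPM and Pdgfra 33.5 CPM. Col1a2, Col1a1, Dcn and Thy1 reached at most 7.16, 1.64, 0.506 and 0.0532 CPM. The summed level of the 6 was 1600 to 1690, 1320 to 1610 and 1380 to 1950 CPM in the same order of lines. It overlapped between the lines, with Col3a1 as nearly all of it. Pdgfra did not overlap between FAK-WT-expressing cells (10.1 to 11.7 CPM) and FAK-/- (26.8 to 33.5 CPM) or FAK-kd-expressing cells (18.3 to 28.4 CPM). Of all genes, 17.5% and 19.7% had every FAK-WT library below every FAK-/- and every FAK-kd library, respectively. Leukocyte and melanocyte markers summed to at most 0.779 and 0.21 CPM in any library. The part of these markers in the results below was not tested.

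Fat4 is the member at the limit of detection in FAK-WT-expressing cells and Fat1 the most abundant one, and the bases before their annotated RefSeq starts are shown for that reason (RefSeq windows, GRCm38.p6, 5′ to 3′ on the gene's strand). The Fat4 window, chr3:38886690-38886939 on the plus strand, ends where the Fat4 gene of the GENCODE annotation begins, although a RefSeq record begins 2.27 kb further upstream. The Fat1 window, chr8:44949958-44950207 on the plus strand, lies 14.8 kb inside the gene, within intron 1 of the longest coding transcript, and 12 of its bases are exonic. Capitals mark a match to GGAATG, a motif of the TEAD factors through which YAP and TAZ act.
Fat4: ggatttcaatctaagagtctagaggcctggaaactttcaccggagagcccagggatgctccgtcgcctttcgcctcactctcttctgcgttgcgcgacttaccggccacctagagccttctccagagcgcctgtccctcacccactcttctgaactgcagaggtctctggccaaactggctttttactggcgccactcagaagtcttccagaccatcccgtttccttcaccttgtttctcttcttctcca
Fat1: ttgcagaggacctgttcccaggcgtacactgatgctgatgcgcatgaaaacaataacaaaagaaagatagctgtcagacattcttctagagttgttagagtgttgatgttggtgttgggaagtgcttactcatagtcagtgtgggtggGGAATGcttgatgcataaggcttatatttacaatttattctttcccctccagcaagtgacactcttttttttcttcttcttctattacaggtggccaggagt
The windows are 54.8% and 42.0% G and C. Both strands were searched for TGANTCA (AP-1), TGACGTCA (a cyclic AMP response element), CCGGAA (ETS factors) and GGAATG (TEAD), of which the last pair can share the bases GGAA. The Fat4 window held none of the 4, and the Fat1 window held a single match, GGAATG, whose leftmost base is 102 bases before the start. In all 32851 RefSeq windows of 250 bases, these motifs were found in 6.75%, 1.55%, 12.0% and 12.6%, respectively. A match is a run of letters and not evidence of binding.

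Fat4, the receptor of the pair, was detected in all libraries of FAK-/- and FAK-kd-expressing cells and was at the limit of detection in FAK-WT-expressing cells. The gene lies at chr3:38886940-39011985 on the plus strand (mm10), and its longest coding transcript has 17 exons. The FAK-/- libraries held 97, 98 and 103 Fat4 counts and the FAK-kd libraries 42, 56 and 66. The FAK-WT libraries held 1, 0 and 0. Every FAK-/- library was thus above every FAK-kd library, in counts and in CPM. Every FAK-WT library was below every FAK-/- library in CPM, as in 17.5% of all genes.

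On the CPM scale Fat4 stood at 2.91, 3.86 and 3.30 in FAK-/- cells and at 1.26, 1.68 and 1.93 in FAK-kd-expressing cells, with means of 3.36 ± 0.482 and 1.62 ± 0.34 (SD, n = 3). The single count of FAK-WT replicate 1 equals 1.26 CPM, level with the lowest FAK-kd library to 3 digits, and it shows only how shallow that library is. The deep FAK-WT libraries carry the contrast. Had Fat4 been at the mean FAK-kd level, replicates 2 and 3 would have held 61 and 56.3 counts, and at the mean FAK-/- level 126 and 116 counts. Replicate 1 would have held 1.29 or 2.67, too few to tell these levels from its 1 count.

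**Figure D1:**
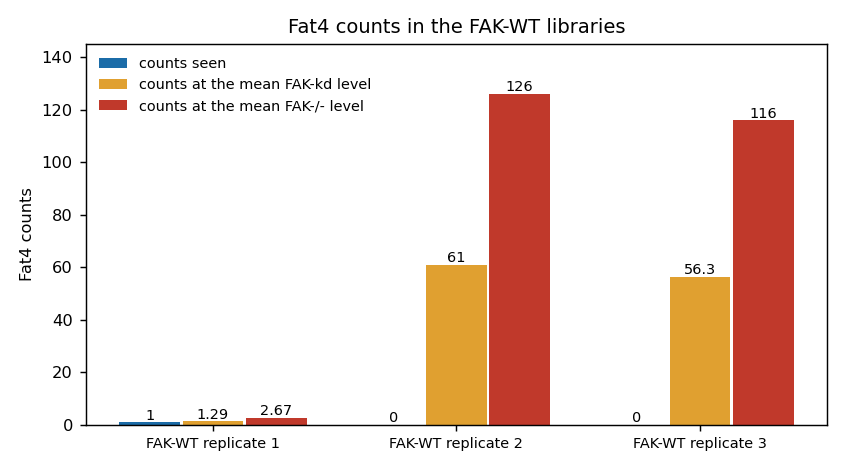
Fat4 counts seen in each FAK-WT library (y axis, counts) beside the counts that the mean FAK-kd and FAK-/- levels would give at that library's depth. Replicates 2 and 3 held 0 counts where 56.3 to 126 would have been reached, and replicate 1 is too shallow to separate the 3 bars.

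Against the 2 FAK-WT libraries at 0, with the floor set at 3 counts in each, Fat4 was at least 40.4-fold higher in FAK-/- cells and at least 19.5-fold higher in FAK-kd-expressing cells. With the shallow library included and held to the same floor, 0.123 CPM over the group, the mean levels were 27.2 and 13.2 times the floor. From the 1 count pooled over the 3 libraries, the ratio was 242 for FAK-/- cells (95% exact Poisson interval 43.1 to 9588) and 119 for FAK-kd-expressing cells (21 to 4718). These intervals cover counting error only. The ratios and bounds set the same contrast that chose the gene and carry no test.

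Between FAK-kd-expressing and FAK-/- cells the Fat4 difference did not pass the test. The log2 fold change was -1.04 (95% interval -1.85 to -0.24) with an adjusted p of 0.115 in edgeR's quasi-likelihood test over all genes. A library of the third line decided this call. Without FAK-WT replicate 1 the log2 fold change was again -1.04, and the adjusted p was 0.0188. With only the FAK-kd and FAK-/- libraries in the edgeR fit the adjusted p was 0.023. Of all genes tested, 12.6% had every FAK-kd library below every FAK-/- library, as Fat4 did.

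Dchs1, the ligand of Fat4, was low and did not pass the test in any comparison. It lies at chr7:105752990-105787654 on the minus strand. It held 27 and 24 counts in the deep FAK-WT libraries and 1 in the shallow one, 24, 23 and 28 in FAK-/- and 25, 31 and 37 in FAK-kd-expressing cells. The means were 0.89 ± 0.32, 0.841 ± 0.105 and 0.92 ± 0.167 CPM (SD, n = 3). The ranges of all 3 lines overlapped. The FAK-WT mean is raised by the single count of the shallow library, equal to 1.26 CPM, while the deep libraries were at 0.719 and 0.692 CPM. Without the shallow library, the log2 fold change against FAK-/- cells given next was -0.25.

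The log2 fold change of Dchs1 was -0.20 for FAK-WT-expressing against FAK-/- cells (95% interval -0.95 to 0.54), with an adjusted p of 0.748 in edgeR's quasi-likelihood test. It was -0.34 for FAK-WT- against FAK-kd-expressing cells (-1.07 to 0.40, adjusted p = 0.57) and 0.13 for FAK-kd-expressing against FAK-/- cells (-0.53 to 0.80, adjusted p = 0.867). The intervals leave room for a change of up to about 1 on the log2 scale. Where Fat4 counts fell to the floor, its ligand's counts in the deep libraries thus stayed at 23 to 37 in every line.

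Fat1 was by far the most abundant member and ran opposite to Fat4: it was highest in FAK-WT-expressing cells. The gene lies at chr8:44935447-45052257 on the plus strand, with 27 exons in its longest coding transcript. It stood at 69.2, 73.7 and 70.3 CPM in FAK-WT-expressing, 32.0, 34.0 and 40.8 CPM in FAK-/- and 41.1, 37.7 and 44.7 CPM in FAK-kd-expressing cells. All FAK-WT libraries were above all 6 others, as were those of 12.1% of all genes against the FAK-/- and 13.1% against the FAK-kd libraries. The FAK-/- and FAK-kd libraries overlapped. The shallow FAK-WT library, with 55 Fat1 counts and a counting error of 13.5%, lay within 5 CPM of the deep ones, which held 2770 and 2437.

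The means were 71.1 ± 2.35, 35.6 ± 4.64 and 41.2 ± 3.53 CPM (SD, n = 3) in FAK-WT-expressing, FAK-/- and FAK-kd-expressing cells. Against FAK-/- cells, Fat1 rose by 1.01 on the log2 scale (SE 0.11, 95% interval 0.78 to 1.23, adjusted p = 6.13e-06 in edgeR's quasi-likelihood test), a value at the fold-change minimum of 1. Against FAK-kd-expressing cells the log2 fold change was 0.80 (SE 0.11, 0.57 to 1.02), with an adjusted p of 5.92e-05 but under the fold-change minimum. Between FAK-kd-expressing and FAK-/- cells it was 0.21 (SE 0.10, -0.01 to 0.42), with an adjusted p of 0.257.

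The fold-change call of Fat1 against FAK-/- cells sat on the edge of the threshold. Without FAK-/- replicate 1, FAK-/- replicate 2 or FAK-WT replicate 2 the log2 fold change was 0.94, 0.98 or 0.98. The adjusted p stayed at or below 0.000137 over 17 alternatives. Without FAK-WT replicate 1 it was 1.02.

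Fat2 had its highest level in FAK-kd-expressing cells, at few counts in every line. It lies at chr11:55250609-55336564 on the minus strand, with 24 exons in its longest coding transcript. The FAK-kd libraries held 21, 25 and 29 counts, the FAK-/- libraries 8, 4 and 13, and the FAK-WT libraries 0, 11 and 10. In CPM the FAK-kd libraries were at 0.63, 0.749 and 0.849, above all FAK-/- libraries (0.24, 0.158 and 0.416) and both deep FAK-WT libraries (0.293 and 0.288). The 0 of the shallow FAK-WT library is no information at these levels. Of all genes, 12.8% had every FAK-kd library above every FAK-/- library and 19.7% had every FAK-WT library below every FAK-kd library.

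No Fat2 comparison passed the test. The log2 fold change was 1.42 for FAK-kd-expressing against FAK-/- cells (95% interval 0.52 to 2.33), with an adjusted p of 0.0547 in edgeR's quasi-likelihood test. It was -1.38 for FAK-WT- against FAK-kd-expressing cells (-2.38 to -0.38, adjusted p = 0.0553) and 0.04 for FAK-WT-expressing against FAK-/- cells (-1.01 to 1.10, adjusted p = 0.997). Both near-threshold values depended on single libraries. Between FAK-WT- and FAK-kd-expressing cells Fat2 also passed with a low-count filter (filterByExpr) and with only the groups compared. Without FAK-/- replicate 3 the adjusted p of edgeR was 0.0138 for FAK-kd-expressing against FAK-/- cells and 0.0234 for FAK-WT- against FAK-kd-expressing cells, and without FAK-WT replicate 1 the former was 0.045.

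**Figure D2:**
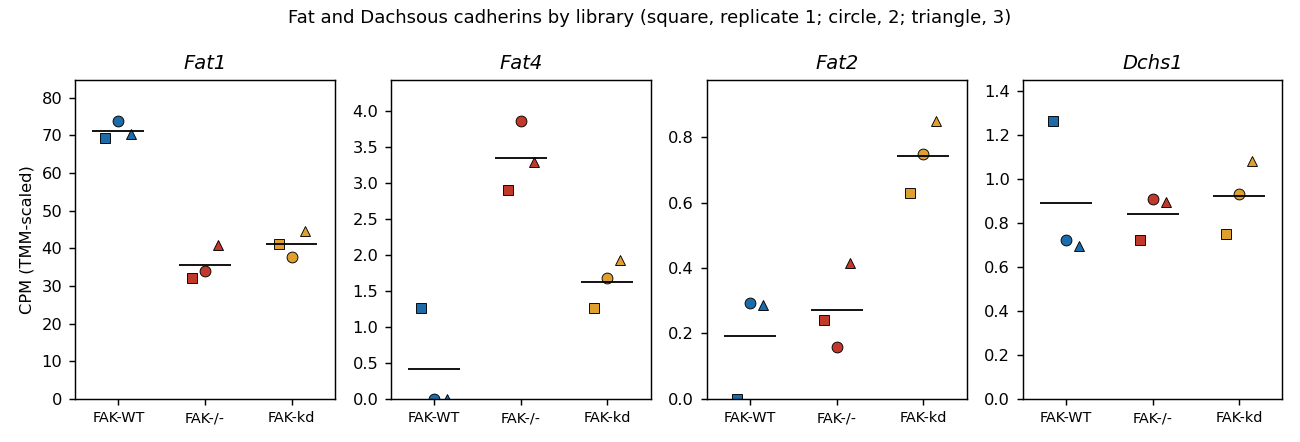
CPM (y axis, TMM-scaled, a separate linear scale for each gene) of the 4 measured members in each library of the 3 lines, with bars at the group means. Fat1 was highest in FAK-WT-expressing cells (69.2 to 73.7 CPM), Fat4 in FAK-/- cells (2.91 to 3.86 CPM) and Fat2 in FAK-kd-expressing cells (0.63 to 0.849 CPM), while the Dchs1 ranges overlapped; each square of FAK-WT is the shallow library, where 1 count is 1.26 CPM.

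**Figure D3:**
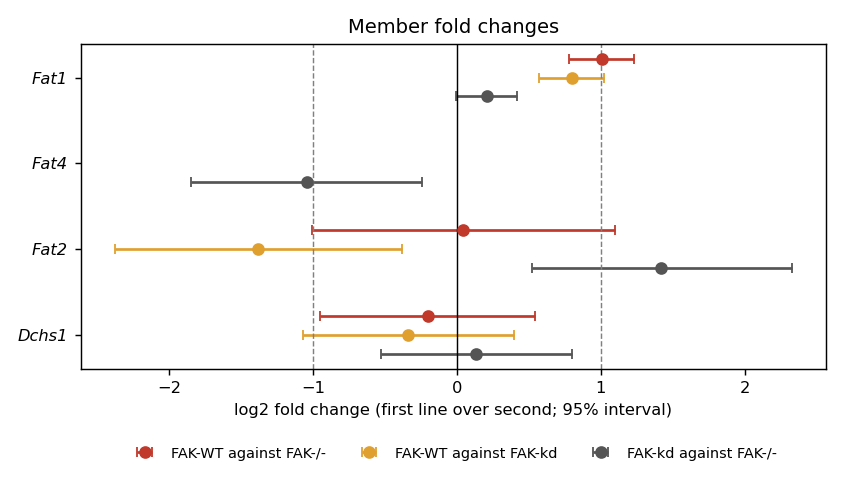
Log2 fold changes of the members (x axis) with 95% intervals from the edgeR fit for the 3 comparisons, the dashed lines marking the fold-change minimum. Only Fat1 lay past the minimum with an adjusted p under the threshold (1.01 against FAK-/- cells), and no value is drawn for Fat4 against FAK-WT-expressing cells, which is given as a bound.

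Fat1, Fat2 and Dchs1 were read against a threshold of an adjusted p of at most 0.05 together with a change of 1 or more on the log2 scale in either direction. Of these 3, 1 (Fat1) passed between FAK-WT-expressing and FAK-/- cells, where 5.38% of all genes did. Between FAK-WT- and FAK-kd-expressing cells 0 of the 3 passed in edgeR (2 at an unadjusted p under 0.05, Fat1 and Fat2, and 0 also in DESeq2), where 5.26% of all genes did. Fat4 is left out of these counts, since the family was chosen by its level in FAK-WT-expressing cells. Between FAK-kd-expressing and FAK-/- cells 0 of 4 passed in edgeR (2 at an unadjusted p under 0.05, Fat2 and Fat4, and 0 also in DESeq2), where 2.01% of all genes did. Without FAK-WT replicate 1 that count was 2, and without FAK-/- replicate 3 it was 1. Both comparisons with FAK-WT share the FAK-WT libraries, so they are not independent of each other.

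Per kilobase of transcript, which allows levels of different genes to be compared, Fat1 led the family in each line. With longest coding transcripts of 14.81, 16.11, 14.53 and 10.75 kb for Fat1, Fat4, Fat2 and Dchs1, the Fat1 level was 4.80 CPM per kb in FAK-WT-expressing, 2.40 in FAK-/- and 2.78 in FAK-kd-expressing cells. In FAK-/- cells Fat4 came next at 0.208 ± 0.0299 CPM per kb (SD, n = 3), followed by Dchs1 at 0.0782 ± 0.00981 and Fat2 at 0.0187 ± 0.00909, with no overlap between neighbours. In FAK-kd-expressing cells Fat4 (0.0782 to 0.12 CPM per kb) and Dchs1 (0.0697 to 0.101) overlapped, and Fat2 was lower at 0.0433 to 0.0584. In the deep FAK-WT libraries, Dchs1 took the second place and Fat4 was at 0.

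As a share of the family's summed length-scaled level, Fat1 made up 97.5% in FAK-WT-expressing, 88.7% in FAK-/- and 92.1% in FAK-kd-expressing cells. The FAK-WT mean includes the shallow library, and Fat1 was at 98.3% in both deep ones. Fat4 made up 6.66% to 9.12% in the FAK-/- and 2.63% to 3.74% in the FAK-kd libraries. It made up 0% in both deep FAK-WT libraries. These shares are over the 4 measured members and leave out the 3 not analysed.

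**Figure D4:**
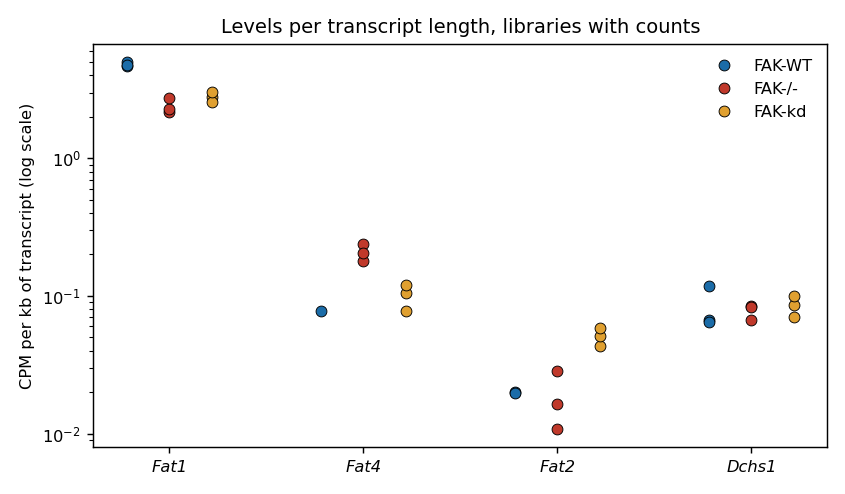
CPM per kb of the longest coding transcript (y axis, log scale) for the 4 members, 1 point per library with counts and coloured by line. Fat1 was above the other members in every library, and the only Fat4 point of FAK-WT-expressing cells is the 1 count of the shallow library, since libraries at 0 cannot be drawn on this axis.

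The reads that reach these genes could in part come from others, since the library kit does not mark strand. Fat1 overlaps the antisense gene Gm2366 over 487 exonic bases, and Fat4 overlaps the antisense genes C230034O21Rik over 1209 and Gm43539 over 281 bases. None of these 3 was analysed here. Dchs1 overlaps the pseudogene Gm15645 over 648 exonic bases, and Gm15645 held 0 to 4 counts in each library. Of the words of 31 bases in the transcripts of Fat4, 8.19% also occur in transcripts of other genes, against 4.86% for Dchs1, 2.77% for Fat1 and 0% for Fat2.

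Across the 9 libraries, Fat1 and Fat4 levels ran in opposite directions, with a Pearson r of -0.825 for log2 CPM (prior count 2) and -0.956 without the shallow library. The points share their lines, 3 libraries from each, so this describes the order of the 3 lines. Every r with Fat4, here and below, draws on its near absence from FAK-WT-expressing cells, by which the family was chosen. These values are descriptions and carry no test. The other 5 pairs of members had an r between -0.381 and 0.484, and between -0.417 and 0.604 without the shallow library. Of these, Fat2 and Dchs1 went from -0.334 to 0.505 and Fat1 and Dchs1 from 0.0326 to -0.417. The genes whose levels followed Fat4 most closely among 12234 were Kdm5d (r = 0.998), which encodes a histone demethylase, Adam8 (0.989), a membrane metalloprotease, Zfp575 (0.978), Nuak1 (0.975), a kinase related to AMPK, and Pip4k2a (0.974), a lipid kinase.

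The likeness to Fat4 was one of pattern and not of size. Kdm5d was at 7.32 ± 2.38 CPM in FAK-WT-expressing, 11.7 ± 0.372 in FAK-/- and 10.2 ± 0.212 in FAK-kd-expressing cells (SD, n = 3) and held 8 counts or more in every library. Its FAK-WT mean is raised by the shallow library, at 10.1 CPM from 8 counts, while the lowest FAK-WT library was at 5.85 CPM. Without FAK-WT replicate 1, only Kdm5d remained among the 5 closest genes, and Adam8, Zfp575, Nuak1 and Pip4k2a ranked 21, 59, 85 and 107. The depth of that library moved with these correlations, and its part in them was not tested.

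The other genes of the pathway were taken from 5 lists of 85 genes, of which 77 were measured. Of the 77, 3 were higher and 6 lower past the threshold in FAK-WT-expressing than in FAK-/- cells, and 3 were higher and 4 lower than in FAK-kd-expressing cells. Between FAK-kd-expressing and FAK-/- cells 1 was higher and 3 lower. These shares, 11.7%, 9.09% and 5.19%, stand beside 5.38%, 5.26% and 2.01% of all genes. By direction, 2.32% of all genes were higher and 3.06% lower in FAK-WT-expressing than in FAK-/- cells, 2.37% and 2.89% than in FAK-kd-expressing cells, and 0.914% and 1.09% were higher and lower in FAK-kd-expressing than in FAK-/- cells. The median log2 fold change over all genes was 0 in each comparison.

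The cytoplasmic partners of Fat and Dachsous proteins did not pass the threshold. All 14 were measured, among them Lix1l, Mpdz, the Ena/VASP proteins Enah, Vasp and Evl that extend actin filaments, and the junctional scaffold Scrib, and 0 passed in the 3 comparisons in edgeR. By the adjusted p alone, with no fold-change minimum, 1, 3 and 4 passed, where 18.0%, 17.7% and 7.84% of all genes did. Mpdz, a scaffold with many PDZ domains, had a log2 fold change of 0.43 for FAK-WT-expressing against FAK-/- cells (adjusted p = 0.00757 in edgeR). The list's median log2 fold change was -0.04, -0.01 and 0.07 in the 3 comparisons.

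Of the 17 Hippo kinases and their regulators, 1 fell in FAK-WT-expressing against FAK-/- cells and a different 1 against FAK-kd-expressing cells. That is 5.88% of the list in each of these comparisons, near the 5.38% and 5.26% of all genes that passed. Between FAK-kd-expressing and FAK-/- cells 1 was higher and 1 lower, or 11.8% of the list, where 2.01% of all genes passed. Wtip, a LIM protein of the Ajuba family that binds LATS kinases, was at 4.45 ± 0.633 CPM in FAK-WT-expressing, 18.1 ± 4.88 in FAK-/- and 5.82 ± 0.615 in FAK-kd-expressing cells (SD, n = 3). Its log2 fold change was -1.93 against FAK-/- cells (adjusted p = 3.08e-06 in edgeR) and -1.64 for FAK-kd-expressing against FAK-/- cells (adjusted p = 1.45e-05). Frmd6, a relative of the fly Expanded protein upstream of the Hippo kinases, stood at 75.4 ± 6.5, 71.1 ± 1.55 and 162 ± 6.93 CPM in the same order. It was lower in FAK-WT- than in FAK-kd-expressing cells by a log2 fold change of -1.06 (adjusted p = 6.24e-08 in edgeR) and higher in FAK-kd-expressing than in FAK-/- cells by 1.19 (adjusted p = 4.06e-08).

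The kinases Stk3, Stk4, Lats1 and Lats2 themselves did not pass the threshold in any comparison. Under the fold-change minimum, Stk3 had a log2 fold change of -0.55 in FAK-WT- against FAK-kd-expressing cells (adjusted p = 0.00103 in edgeR). Lats2 had 0.41 in FAK-WT-expressing against FAK-/- cells (adjusted p = 0.00996 in edgeR). Sav1, the scaffold of the Stk3 and Stk4 kinases, had a log2 fold change of -0.38 in FAK-WT-expressing against FAK-/- cells (adjusted p = 0.00126 in edgeR), under the fold-change minimum. Against FAK-kd-expressing cells its log2 fold change was -0.48 (adjusted p = 0.000173 in edgeR), also under the minimum. The list's median log2 fold change was -0.03, -0.17 and 0.10 in the 3 comparisons.

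Among the 11 effectors and targets of the Hippo pathway, Ankrd1 rose and Ccn2 fell in FAK-WT-expressing cells. That is 18.2% of the list against FAK-/- and against FAK-kd-expressing cells, where 5.38% and 5.26% of all genes passed. Ankrd1, a well-known YAP target, was at 9.01 ± 2.35 CPM in FAK-WT-expressing, 2.48 ± 0.324 in FAK-/- and 2.90 ± 0.478 in FAK-kd-expressing cells (SD, n = 3), a log2 fold change of 2.00 (adjusted p = 3.64e-06 in edgeR) and 1.77 (adjusted p = 1.05e-05). The shallow FAK-WT library was at 6.29 CPM from 5 Ankrd1 counts, and the deep ones were at 10.4 and 10.3 CPM. Ccn2, another YAP target that encodes a matrix-associated growth regulator, held 0 counts in all FAK-WT libraries (adjusted p = 0.00274 against FAK-/- and 0.00583 against FAK-kd-expressing cells in edgeR). The FAK-/- libraries held 5 to 15 Ccn2 counts and the FAK-kd libraries 6 to 8. Ccn2 was at 0.296 ± 0.16 CPM in FAK-/- and 0.208 ± 0.0321 in FAK-kd-expressing cells, at least 2.40-fold and 1.69-fold above the FAK-WT floor of 3 counts per library. These 2 targets of the same coactivators thus moved in opposite directions.

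Ccn1, also a YAP target, had a log2 fold change of -0.76 against FAK-/- cells (adjusted p = 0.00062 in edgeR) and -0.88 against FAK-kd-expressing cells (adjusted p = 0.000157), under the minimum. Amotl2, the other target listed, had a log2 fold change of 0.05, -0.03 and 0.08 in the 3 comparisons, none past the threshold. Yap1, Wwtr1, which encodes TAZ, and the Tead factors did not pass the threshold in any comparison. Tead4 was higher in FAK-WT-expressing cells but under the minimum. Its log2 fold change was 0.45 against FAK-/- cells (adjusted p = 0.0073 in edgeR) and 0.78 against FAK-kd-expressing cells (adjusted p = 7.49e-05). Between FAK-kd-expressing and FAK-/- cells 0 of the 11 passed in edgeR, where 2.01% of all genes did. By the adjusted p alone 1 passed (Wwtr1, log2 fold change 0.27, adjusted p = 0.0256 in edgeR), where 7.84% of all genes did. The list's median was 0.00, 0.01 and -0.05.

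Of the 13 core planar cell polarity genes, 2 fell in FAK-WT-expressing against FAK-/- cells, or 15.4%, where 3.06% of all genes fell. Vangl2, a membrane protein of the polarity core, was at 1.42 ± 1.23 CPM in FAK-WT-expressing, 6.22 ± 0.128 in FAK-/- and 3.11 ± 0.49 in FAK-kd-expressing cells (SD, n = 3). The FAK-WT mean includes the 0 of the shallow library, and the deep libraries were at 2.16 and 2.11 CPM. The log2 fold changes were -1.61 in FAK-WT-expressing (adjusted p = 0.000258 in edgeR) and -1 in FAK-kd-expressing cells (adjusted p = 0.00924) against FAK-/- cells, the latter at the edge of the threshold. Ptk7, a pseudokinase receptor, was at 0.054 ± 0.07, 2.30 ± 0.0111 and 1.18 ± 0.174 CPM, with 0 to 5 counts in the FAK-WT libraries. Its log2 fold change was -4.75 against FAK-/- cells (adjusted p = 3.35e-06 in edgeR) and -3.79 against FAK-kd-expressing cells (adjusted p = 3.78e-05).

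Vangl2 and Ptk7 had the order of mean levels that Fat4 had, FAK-/- above FAK-kd-expressing above FAK-WT-expressing cells. So had Fzd3, Vangl1, Prickle2, Dvl1 and Dvl3 of the same list, none of them past the threshold, while Dvl2 had not. The order is thus not particular to the genes that passed, and its share over all genes was not counted. For Fzd3, Vangl1, Prickle2, Dvl1 and Dvl3 it holds for the means only, since their FAK-kd and FAK-/- libraries overlapped. The FAK-WT and FAK-kd libraries of Dvl1 and Dvl3 overlapped as well. The list's median log2 fold change was -0.30, -0.10 and -0.25 over all 13. Genes that never exceeded 3 counts in 1 of the lines compared made up 5, 5 and 4 of the 13, and the median without them was -0.40, -0.39 and -0.08.

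The rest of the cadherin superfamily, 22 measured of 30 named, moved in both directions. Past the threshold, 2 rose and 2 fell in FAK-WT-expressing against FAK-/- cells, or 18.2% of the list, where 5.38% of all genes passed. With FAK-kd-expressing cells as the reference, 2 rose and 1 fell (13.6%, beside 5.26% of all genes). For FAK-kd-expressing against FAK-/- cells, 1 fell and 0 rose (4.55%, beside 2.01%). Pcdh10 rose in FAK-WT-expressing cells, from 1.45 ± 0.303 CPM in FAK-/- and 1.59 ± 0.485 in FAK-kd-expressing cells to 7.93 ± 2.96 (SD, n = 3), a log2 fold change of 2.22 (adjusted p = 5.84e-05 in edgeR) and 2.09 (adjusted p = 8.77e-05). Its FAK-WT mean is raised by the shallow library, at 11.3 CPM from 9 counts, while the deep libraries were at 5.93 and 6.52 CPM. Cdh5, the cadherin of endothelial junctions, was at 1.49 ± 0.416 CPM in FAK-WT-expressing and 0.142 ± 0.033 in FAK-/- cells (log2 fold change 3.42, adjusted p = 0.000272 in edgeR). The FAK-kd libraries held 0 to 2 Cdh5 counts, and the FAK-WT level was 16.7 times the FAK-kd floor of 3 counts per library (adjusted p = 1.21e-05 in edgeR). The other endothelial markers, Pecam1, Kdr and Tek, reached at most 0.315, 0.0899 and 0.0599 CPM in any library.

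Pcdh9 held 0, 0 and 0 counts in the FAK-WT libraries (adjusted p = 1.39e-05 against FAK-/- and 3.14e-06 against FAK-kd-expressing cells in edgeR). It was at 0.872 ± 0.11 CPM in FAK-/- and 1.65 ± 0.241 in FAK-kd-expressing cells, at least 7.08-fold and 13.4-fold above the floor of 3 counts per library. Pcdh20 was highest in FAK-/- cells, at 6.47 ± 0.611 CPM against 1.00 ± 0.244 in FAK-WT-expressing and 0.566 ± 0.191 in FAK-kd-expressing cells. Its log2 fold change was -2.86 for FAK-WT-expressing (adjusted p = 3.64e-06 in edgeR) and -3.51 for FAK-kd-expressing cells (adjusted p = 6.68e-07), each against FAK-/- cells. The list's median log2 fold change was -0.02, 0.19 and -0.15, and -0.03, 0.08 and -0.04 with genes at the floor set at their bound or left out.

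**Figure D5:**
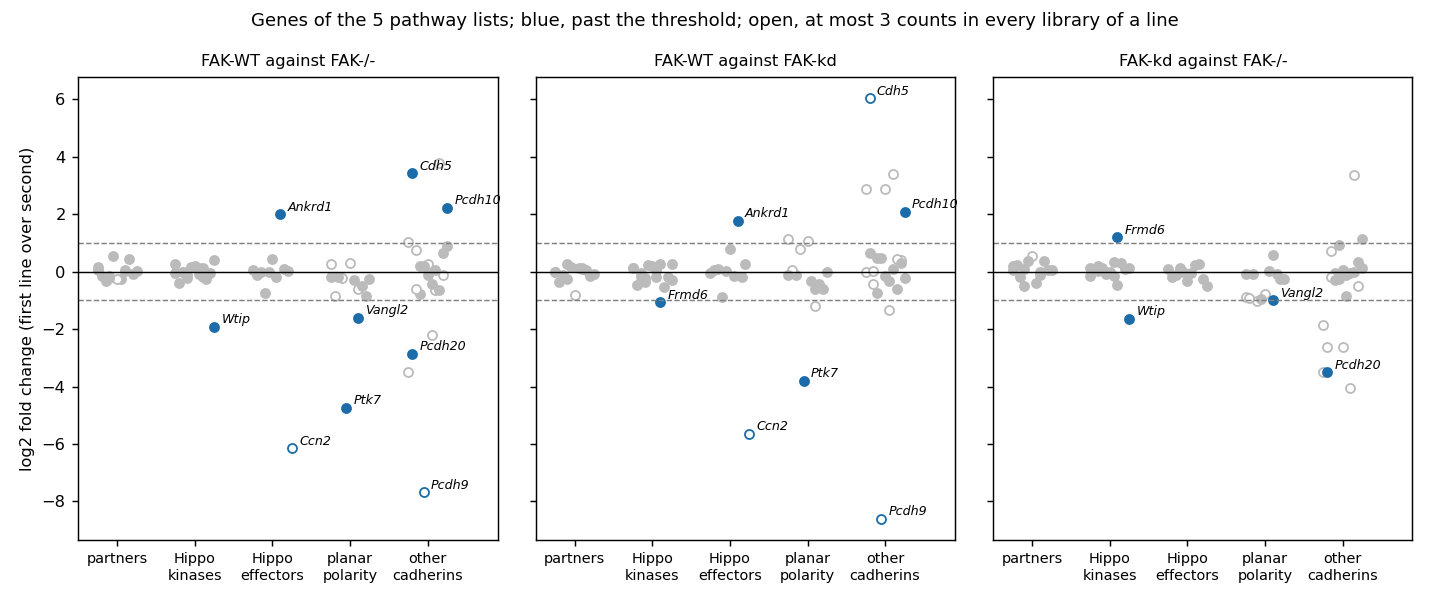
Log2 fold changes (y axis) of the 77 measured genes of the 5 lists (x axis) in the 3 comparisons, blue where past the threshold and open where 1 of the lines compared never exceeded 3 counts, so that the plotted size depends on the prior count. Most genes lay between the dashed lines at -1 and 1, all 14 partners did not pass, and Ptk7, Ccn2 and Pcdh9 lay furthest below in the comparisons with FAK-WT-expressing cells.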

How the data were processed

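RNA sequencing libraries (TruSeq RNA v2, unstranded, paired-end) of 9 samples were grouped by sample title. The authors pseudoaligned reads with kallisto 0.43.1, as the submitters' processing notes name it, and summed transcripts to genes through tximport. The deposited tables hold these expected counts as unscaled whole numbers. The transcriptome release is not given in the sources used here. Members and gene lists were chosen with earlier results of these data known.

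edgeR 4.0.16 in R 4.3.3 (TMM, estimateDisp, glmQLFit, glmQLFTest) was fitted to all 19044 identifiers and 9 libraries with cell line as sole factor. A gene passed at a Benjamini-Hochberg adjusted p of at most 0.05 over all genes together with a change of 1 or more on the log2 scale in either direction. Alternatives used DESeq2 1.42.0, other scaling, filters and samples. The procedure was tested on simulated data. Where every library of a line held at most 3 counts, bounds were taken against 3 counts in each library. Lengths, positions and overlaps came from GENCODE M21 (mm10) and promoter windows from RefSeq (GRCm38.p6), which matched 5 of the 7 members.

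Named were the members, Ptk2, the list genes past the threshold (all of them where no more than 5 passed in a list and comparison) and the 5 genes most like Fat4. Mpdz, Sav1, Ccn1, Amotl2, Wwtr1 and other list genes that did not pass were named after their values were seen. Counting errors and floors cover counting error only. Same-numbered replicates did not deviate together (mean r = -0.00768 over 9 pairs of libraries, and 0.00353 over 18 pairs with different numbers), so the numbers were not used as pairs.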

Additional observations from a re-analysis of the deposited data

How the results depend on the processing

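The counts of members given here against FAK-WT-expressing cells include Fat4 by its fitted value. They describe the contrast that chose the family and carry no test. Without Fat4, 1 of 3 members passed against FAK-/- and 0 of 3 against FAK-kd-expressing cells, where 5.38% and 5.26% of all genes did. Between FAK-WT-expressing and FAK-/- cells the count past the threshold, 2, became 0 with DESeq2's shrunken fold changes (betaPrior), 0 where each library had to hold 10 counts or more, 1 with a test against the fold-change minimum itself (glmTreat) and 1 to 2 on leaving out each library. Between FAK-WT- and FAK-kd-expressing cells, 1 became 0 with betaPrior, 0 with at least 10 counts, 2 with filterByExpr, 2 with only the groups compared, 2 with no fold-change minimum and 1 to 2 on leaving out each library. Between FAK-kd-expressing and FAK-/- cells, 0 became 1 with filterByExpr, 1 with only the groups compared and 0 to 2 on leaving out each library. Fat4, Fat2 and Dchs1 are not among the genes with at least 10 counts in every library, since that filter removes genes low in the shallow library.

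The list genes past the threshold, 9, 7 and 4 in the 3 comparisons, became 0, 1 and 1 with at least 10 counts in every library and 20, 25 and 11 with no fold-change minimum, and 2 in the last with glmTreat. Leaving out each library changed no list count by over 1.5 times. With the floor of 3 counts set over the FAK-WT group, Fat4 in FAK-/- and FAK-kd-expressing cells was 81.7 and 39.5 times the floor. Without FAK-WT replicate 1, 1 of the 5 genes most like Fat4 remained.

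The log2 fold change of Fat2 between FAK-WT-expressing and FAK-/- cells, 0.04, ran from -0.19 to 0.48 on leaving out each library, at -0.03 without FAK-/- replicate 1 and -0.19 without FAK-/- replicate 2. That of Dchs1 between FAK-kd-expressing and FAK-/- cells, 0.13, ran from -0.01 (without FAK-kd replicate 3) to 0.25. Fat4 between these lines had an adjusted p of 0.0255 in edgeR when only their libraries were fitted with filterByExpr, an alternative chosen after seeing the data.

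The replicate numbers did not pair the samples. With the replicate block, 1 member passed between FAK-WT-expressing and FAK-/- cells, Fat4 by its fitted value as a description. Fat1 had a log2 fold change of 1.00 there, under the minimum before rounding, and Fat2 -0.01. No other count moved by over 1.5 times.
The cause of these changes was not tested. Fat2 held 0 to 13 counts in the FAK-WT and FAK-/- libraries and Fat4 0 to 1 in the FAK-WT libraries, which limits what these depths can show.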

Other observations

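Neighbours of Fat4 and Fat1 on the chromosome differed from them in the size or sign of their change. Ankrd50, the nearest tested gene before Fat4 at 402 kb, was at 59.5 CPM in FAK-WT-expressing, 80.9 in FAK-/- and 74.9 in FAK-kd-expressing cells, a log2 fold change of -0.45 against FAK-/- cells (adjusted p = 0.000587 in edgeR). Cyp4v3, 253 kb beyond Fat1, held at most 2 counts in the FAK-WT, 4 in the FAK-/- and 19 in the FAK-kd libraries (adjusted p = 0.00309 in edgeR between FAK-WT- and FAK-kd-expressing cells). Fam149a, 284 kb beyond Fat1, was at 0.119, 3.03 and 4.17 CPM in the same order. Its log2 fold change was -4.07 against FAK-/- cells (adjusted p = 4.72e-07 in edgeR) and -4.53 against FAK-kd-expressing cells (adjusted p = 1.47e-07), opposite in sign to that of Fat1. Slc36a1, 14.3 kb from Fat2, had a log2 fold change of -0.06, 0.04 and -0.10 in the 3 comparisons, none past the threshold. These genes were named for their position after their values were seen.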
